A study of Mus musculus with 4 samples.

Results

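Genes of the spliceosome that carried a listed m6A site in embryonic mouse pancreas are described here. They were taken from the authors' site lists as the rows whose pathway annotation names the spliceosome, with 1 annotated gene left out, which gave 76 of the 5927 genes listed in either genotype. Pancreata were dissected at E15.5. The group labelled KO lacked Mettl3, which encodes the catalytic subunit of the methyltransferase, in Pdx1-positive pancreatic progenitors, and the other group was wild type (WT). MeRIP, the immunoprecipitation of methylated RNA from fragments of about 200 nt, gave 1 library per genotype, beside 1 library of the input RNA. The labels give neither the alleles, the driver line, the strain nor the number of pooled pancreata, and cells outside the Pdx1 lineage keep Mettl3.

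The spliceosome removes introns from pre-mRNA. Small nuclear ribonucleoproteins (snRNPs) recognise the splice sites and the branch point, RNA helicases remodel the complex from step to step, and SR proteins and hnRNPs bind exons and introns and influence which splice sites are used. N6-methyladenosine (m6A) is deposited on many mRNAs by the METTL3 and METTL14 complex, and transcripts of RNA-processing factors can carry the mark like any other mRNA. The questions addressed here were which transcripts of the splicing machinery had a listed site in KO and in WT pancreas, and where.

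The lists held 3937 sites in KO and 10514 in WT. Mettl3 had 0 listed sites in KO and in WT, and since sites carry no expression level the deletion could not be checked from them. Of 12 pancreatic epithelium markers 4 had a site in KO and 8 in WT, and Pdx1, Ptf1a, Cpa1 and Ins1 had none. Of 5 mesenchyme markers 4 had a site in each genotype. Of 5 blood and endothelium markers 3 had a site in each genotype, and Hbb-bt and Kdr had none. Over all genes the number with a KO site was 54.6% of the number with a WT site, so these small counts are no measure of cell types. The peak names were numbered up to 99502 in KO and up to 94812 in WT, so the listed mRNA sites are a small part of the numbered peaks, and how they were selected was not stated. Reads per library are unknown. In bulk tissue, fewer cells of a type and less RNA per cell cannot be told apart. With 1 library of each kind per genotype there is no spread between replicates, and no test between genotypes was made.

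Spliceosome genes had far fewer listed sites in KO than in WT. There were 41 sites in KO and 167 in WT, so the KO number was 24.6% of the WT number, against 37.4% over all genes. Genes with a site numbered 31 in KO and 67 in WT (46.3%, against 54.6% over all genes). Of the 67 genes listed in WT, 22 were listed in KO too, which is 32.8% (Wilson 95% interval 22.8 to 44.7), and this share was 38.0% of the 5080 genes with a WT site in the whole series. The interval holds the value for all genes. Seen from the other side, 22 of the 31 genes with a KO site had a WT site, 71.0% (53.4 to 83.9) against 69.5% over all genes. Of the 1903 WT-listed genes with any pathway entry 40.6% were also in the KO list, and among all genes given the same numbers of WT sites as the spliceosome genes 42.5% were. Another 45 genes were listed in WT only and 9 in KO only. Intervals of this kind cover counting error over genes or sites only, since genes are not replicates.

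The spliceosome term ranked lower among annotated pathways by sites than by genes. Of the 97 pathways with at least 30 WT genes, ranked from the lowest KO number of sites relative to WT, the spliceosome was in place 4, below a median of 37.0%. The neighbouring mRNA surveillance pathway stood at 21.9%, RNA transport at 37.0% and the ribosome at 31.1%. Ranked by the share of WT genes with a KO site it was in place 18 (median 42.3%). Pathways share genes, and the ranks are a description of these libraries.

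**Figure D1:**
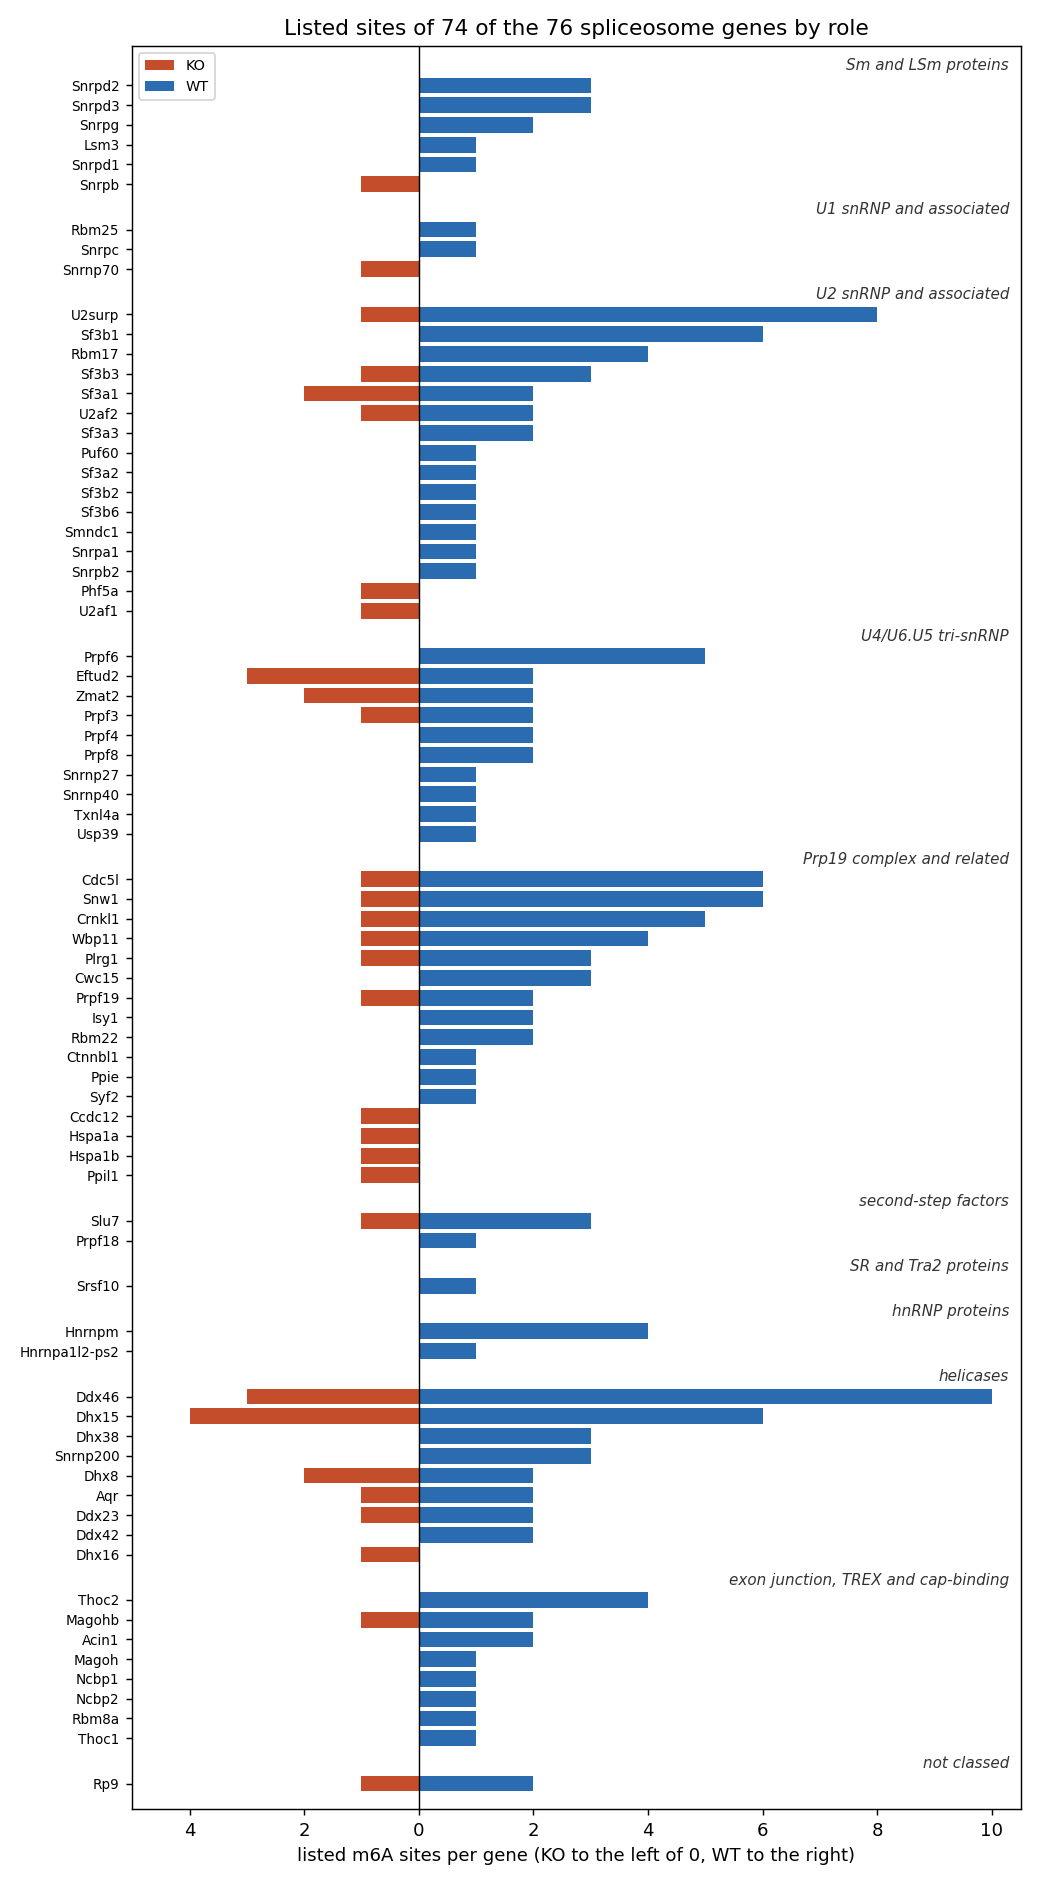
Number of listed m6A sites for 74 of the 76 spliceosome genes, grouped by role, with KO bars to the left of 0 and WT bars to the right. The longest WT bar is Ddx46 with 10 sites, and the longest KO bar is Dhx15 with 4.

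Spliceosome genes with a lone WT site were not listed in KO at all. None of the 26 such genes had a KO site, 0% with an upper Wilson bound of 12.9%, whereas 26.2% of all 2755 genes with 1 WT site did. Of 19 genes with 2 WT sites 11 had a KO site, 57.9% (36.3 to 76.9) against 40.2% of all genes. With 3 to 5 WT sites these numbers were 5 of 15, 33.3% (15.2 to 58.3) against 56.7%, and with 6 or more they were 6 of 7, 85.7% (48.7 to 97.4) against 79.2%. The value stayed at 0 (0 of 25, against 20.1% of all genes) where the false discovery rate was at most 50%. It was also 0 without intervals of 1000 bp or more (0 of 24, against 25.6%). With both lists limited to a fold enrichment of at least 5, 2 of 26 genes with a lone WT site had a KO site, against 22.1%. With the upper 75% of each list by score 4 of 24 did, against 24.7%. After trimming the WT list to as many sites as KO it was 5 of 19 by fold enrichment, against 36.6%. By score it was 11 of 29, 37.9% against 37.4%, so the lower share was not seen there. A member carried 1.32 sites on average in KO and 2.49 in WT, against 1.42 and 2.07 over all genes.

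**Figure D2:**
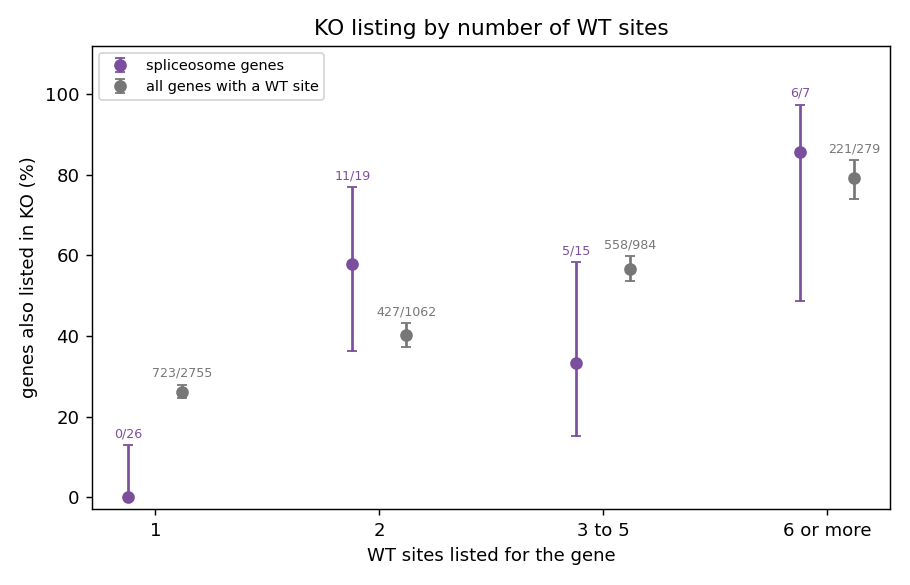
Percentage of WT-listed genes also listed in KO, by number of WT sites, for spliceosome genes (purple) and all genes (grey), with Wilson 95% intervals and the counts beside each point. Spliceosome genes with 1 WT site stand at 0 of 26, below the 723 of 2755 of all genes.

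The Sm and LSm proteins form the rings at the heart of the snRNPs. Of 15 such genes, counting sites with the pathway entry, 1 had a site in KO, 5 had a site in WT, and 0 had both. Snrpb, an Sm protein gene, had its KO site at chr2:130175330-130175441 with a fold enrichment of 5.42, the ratio of MeRIP over input given by the authors for a peak. Snrpd2 had 0 KO sites and 3 WT sites of 11.63-fold, 10.88-fold and 9.33-fold, the strongest at chr7:19149722-19149894. Snrpd3 likewise had 0 and 3 sites, the WT values being 9.80-fold, 6.82-fold and 5.93-fold. Snrpg had 2 sites in WT (best 7.16-fold), and Snrpd1 (10.33-fold) and Lsm3 (10.46-fold), whose product belongs to the ring on U6 RNA, had 1 each. All 5 WT-listed ring genes were therefore without a KO site, 0% (0 to 43.4). This interval holds the 38.0% of all genes with a WT site. Snrpn had 1 WT site but no pathway entry, so it is not counted here. Snrpe, Snrpf and the other 6 LSm genes of the list had no site in these lists.

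Among the genes of the U1 snRNP and its partners, which recognise the start of the intron, 2 of 7 had a KO site and 4 a WT site. Sites in both genotypes were listed for 1 gene. Snrnp70, a U1-specific protein gene, was listed in KO only. Snrpc (8.29-fold), another U1-specific protein gene, and Rbm25 (4.57-fold) had 0 KO sites and 1 WT site each.

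The U2 snRNP binds the branch point, and most of its genes had a listed site in WT. Of 20 genes 6 had a site in KO, 14 in WT and 4 in both. This was not particular to U2, since 10 of 16 tri-snRNP genes and 8 of 13 helicase genes had a WT site. Of the U2 genes listed in WT, 28.6% were also listed in KO (11.7 to 54.6), and the interval holds the 38.0% of all genes. Sf3b1, which encodes the protein that clamps the branch point, had 0 KO sites and 6 WT sites between 4.32-fold and 8.12-fold. U2surp had 1 KO site (3.02-fold) and 8 WT sites (5.16-fold to 8.51-fold). Of the SF3A genes, Sf3a1 had 2 sites in each genotype, at 5.45-fold and 3.09-fold in KO and at 5.83-fold and 4.44-fold in WT, while Sf3a2 (7.31-fold) and Sf3a3 (best 7.24-fold) were listed in WT only. Sf3b3 had 1 KO and 3 WT sites. Its KO site (4.23-fold) also lay over the long non-coding RNA gene Gm15895, and without strand the source of its reads cannot be told apart.

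The U2AF genes, whose products read the polypyrimidine tract and the AG at the end of the intron, differed in their listing. U2af2 had 1 site in KO (4.87-fold) and 2 in WT (6.95-fold and 3.93-fold), and U2af1 was listed in KO only (5.91-fold, chr17:31647082-31647355). Phf5a, a small SF3B subunit gene, was also listed in KO only (6.29-fold, chr15:81871813-81871911). The other U2 genes were listed in WT only. Rbm17 had 4 sites (best 9.71-fold), and Puf60 (7.94-fold), Snrpa1 (7.84-fold), Sf3b6 (7.37-fold), Smndc1 (5.86-fold), Snrpb2 (5.34-fold) and Sf3b2 (4.59-fold) had 1 each.

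The U4/U6.U5 tri-snRNP brings in U6 RNA, which forms part of the catalytic centre. Of its 16 genes 3 had a site in KO, 10 in WT and 3 in both. Eftud2, the GTPase of the U5 snRNP, had more sites in KO than in WT, with 3 KO sites of 7.85-fold, 7.31-fold and 6.69-fold against 2 WT sites of 11.90-fold and 6.95-fold. Zmat2 had 2 sites in each genotype, and Prpf3, a U4/U6 protein gene, had 1 in KO (5.96-fold) and 2 in WT (11.43-fold and 9.84-fold). Prpf6, a bridging protein gene, had 0 KO sites and 5 WT sites (best 8.26-fold). Prpf8, the scaffold of the catalytic core, had 0 KO and 2 WT sites (8.50-fold and 7.11-fold), as had Prpf4 (best 9.49-fold). Txnl4a (12.83-fold), Snrnp40 (8.51-fold), Usp39 (7.92-fold) and Snrnp27 (4.76-fold) had 1 WT site each. Each gene was put in 1 class only, helicases first, so Snrnp200 and Ddx23 count as helicases and not here. Pooled, the 4 snRNP classes had a site in both genotypes in 8 of 33 WT-listed genes, 24.2% (12.8 to 41.0), with 16 sites in KO and 76 in WT. The interval holds the 38.0% of all genes with a WT site.

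The Prp19 complex and its partners activate the catalytic spliceosome. They were the largest class and held the most KO-listed genes, with 10 of 22 genes listed in KO, 12 in WT and 6 in both. Relative to class size this did not stand out, since 6 of 13 helicase genes were listed in KO. The 10 include the similar copies Hspa1a and Hspa1b. For the 6 of 12 WT-listed genes also listed in KO, the Wilson interval ran from 25.4% to 74.6%. It holds the 38.0% of all genes with a WT site. The 6 in both lists were Cdc5l, Plrg1 and Prpf19 of the core complex, the last of these a ubiquitin ligase gene, together with Crnkl1, Snw1 and Wbp11. Each had 1 KO site. Snw1 had a KO value of 3.93-fold and 6 WT values of 3.72-fold to 12-fold, and Cdc5l had 6.11-fold in KO and 4.16-fold to 11.10-fold at 6 sites in WT. The WT sites numbered 5 in Crnkl1 (4.51-fold in KO, best 11.89-fold in WT), 4 in Wbp11, 3 in Plrg1 and 2 in Prpf19. Ppie, a cyclophilin gene, had 0 KO sites and a WT site of 20.43-fold at chr4:123127115-123127446. Also listed in WT only were Rbm22 (2 sites, best 12.24-fold), Cwc15 (3 sites, best 11.33-fold), Syf2 (9.37-fold), Isy1 (2 sites, best 7.94-fold) and Ctnnbl1 (5.48-fold). Of the second-step factors, Slu7 was in both lists (1 site of 5.25-fold in KO and 3 of 8.53-fold to 10.34-fold in WT). Prpf18 was in WT only, with the highest WT value of all members, 20.92-fold at chr2:4635828-4635968.

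SR proteins and hnRNPs had the smallest listed shares of all classes, whereas 74 of the 129 genes first assigned to roles were listed with the pathway entry. Of 12 SR and Tra2 genes 0 had a site in KO and 1 in WT, Srsf10, a splicing repressor gene (4.36-fold, chr4:135856027-135856291). None of Srsf1 to Srsf9, Tra2a and Tra2b was listed. Of 10 hnRNP genes 0 had a site in KO and 2 in WT. Hnrnpm had 4 WT sites of 7.25-fold to 12.24-fold. The other was listed as Gm5803, now Hnrnpa1l2-ps2, a pseudogene of the hnRNP A1 family. This pseudogene was added to the class afterwards and counts in both the 2 and the 10. It had a site of 16.71-fold over chr15:22713820-22714917. That site lies within the span of Cdh18, and reads can also come from near-identical hnRNP A1 copies, so its origin is uncertain. Hnrnpa1, Hnrnpa3, Hnrnpk, Hnrnpu, Pcbp1 and Rbmx had no site in these lists. Whether these transcripts were abundant is not known from the lists.

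Helicases had the highest share of WT-listed genes also listed in KO among the classes with at least 5 WT-listed genes. Of 13 genes 6 had a site in KO, 8 in WT and 5 in both, so 62.5% of those listed in WT were also listed in KO (30.6 to 86.3). This interval holds the 38.0% of all genes and overlaps that of the pooled snRNP classes, and no test of the difference was made. Helicases that work with the snRNPs, such as Snrnp200, Ddx23 and Ddx46, are in this class, so the contrast depends partly on the assignment. Dhx15, which takes the spliceosome apart after splicing, had 4 KO sites (6.64-fold, 5.40-fold, 5.08-fold and 4.92-fold) and 6 WT sites (4.69-fold to 11.28-fold). Ddx46, which acts when the U2 snRNP joins the intron, had 3 KO sites (7.37-fold, 5.76-fold and 2.93-fold) and 10 WT sites (4.59-fold to 8.52-fold), the most of any member. Dhx8, which releases the spliced mRNA, had 2 sites in KO (7.59-fold and 6.25-fold) and 2 in WT (7.68-fold and 6.54-fold).

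The tri-snRNP helicase gene Ddx23 and Aqr, which encodes an intron-binding helicase, each had 1 KO site (4.40-fold and 6.36-fold) and 2 WT sites (best 9.10-fold and 7.78-fold). Dhx16, needed for activation, was listed in KO only (4.66-fold). Snrnp200, which unwinds U4 from U6 RNA, had 0 KO and 3 WT sites (best 12.76-fold), Dhx38, which acts between the splicing steps, had 0 and 3 (best 8.27-fold), and Ddx42 had 0 and 2 (best 11.37-fold). The count of 5 helicases in both lists was 3 where an overlapping pair of sites was needed. The ranking did not hold under every setting, since with the upper 75% of each list by score 2 of 7 helicases and 4 of 11 Prp19 genes were in both, and after trimming the WT list to the KO number of sites by fold enrichment 2 of 4 and 4 of 8.

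Genes of the exon junction complex, the TREX export complex and the nuclear cap-binding complex mark or export spliced mRNA. Of 12 such genes 1 had a site in KO, 8 in WT and 1 in both, 12.5% of those listed in WT (2.24 to 47.1). This interval, too, holds the 38.0% of all genes with a WT site. The gene in both lists was Magohb (1 site of 5.16-fold in KO, 2 of 13.96-fold and 9.39-fold in WT), while its close paralog Magoh had 0 KO sites and 1 WT site of 12.90-fold. The cap-binding genes Ncbp1 (12.60-fold) and Ncbp2 (5.93-fold) and the junction genes Rbm8a (6.90-fold) and Acin1 (2 sites, best 7.15-fold) had sites in WT alone, and the same held for the TREX genes Thoc2 (4 sites, best 8.17-fold) and Thoc1 (5.66-fold). Rp9, a splicing-related gene of the same annotation that was put in no class, had 1 KO site (5.85-fold) and 2 WT sites (9.31-fold and 8.94-fold).

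**Figure D3:**
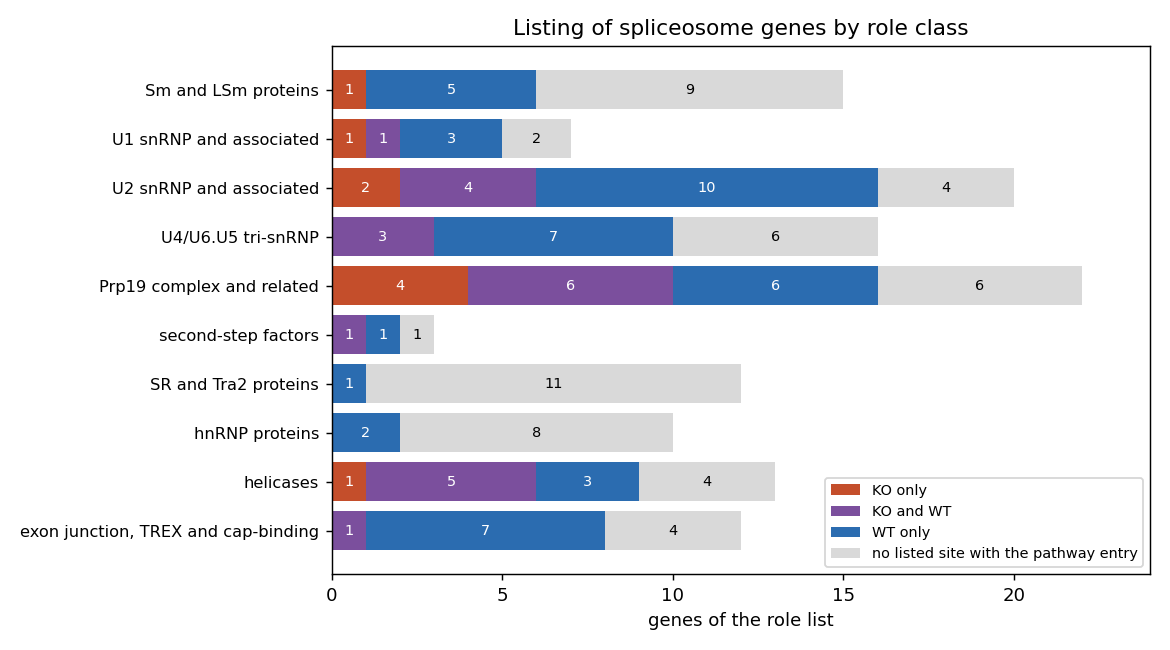
Genes of each role class by listing, as stacked counts of genes listed in KO only (red), in KO and WT (purple), in WT only (blue) and with no listed site that carries the pathway entry (grey). SR and Tra2 proteins and hnRNPs are mostly grey with 11 of 12 and 8 of 10 genes. The largest KO-only block, 4 genes, is in the Prp19 class, which is the largest class, and includes the similar copies Hspa1a and Hspa1b.

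Where a KO site met a WT site, the interval was usually the same. Of the spliceosome sites 15 of 41 in KO, 36.6% (23.6 to 51.9), overlapped a WT site by at least 1 bp, and 15 of 167 in WT, 8.98% (5.52 to 14.3), overlapped a KO site. Over all genes 32.6% of KO sites and 12.2% of WT sites did so, and both intervals hold these values. With the upper 75% of each list by score the WT share was 3.79% (1.63 to 8.56), an interval below the 11% of all WT sites. The 15 pairs lay in 13 genes, 19.4% of the members with a WT site, against 20.5% over all genes. In 13 of the 15 pairs start and end were identical in both lists, 86.7% against 79.1% over all genes. Identical ends place both peaks in 1 interval without resolving their summits. The U2af2 pair ends at the higher-coordinate end of the annotated gene, and exon bounds were not assigned. Whether the listed ends follow annotated bounds in the other pairs was not tested.

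The authors' fold enrichment of these intervals, set side by side, ran from 2.93 to 7.85 in KO (median 5.16) and from 4.02 to 11.90 in WT (median 7.45). The KO value was the lower one in 13 of 15 pairs, as it was in 80.5% of the 1289 pairs of the whole series. The exceptions were a Ddx46 interval (chr13:55670204-55670353, 7.37 in KO and 6.35 in WT) and the Zmat2 interval (5.33 in KO and 4.02 in WT). The highest KO and WT values were those of the Eftud2 interval at chr11:102880895-102880985 (7.85 in KO and 11.90 in WT). It was followed in WT by Magohb (5.16 in KO and 9.39 in WT), Rp9 (5.85 and 9.31), Slu7 (5.25 and 9.18) and Ddx23 (4.40 and 9.10). Of the remaining pairs, Prpf19 had 6.41 in KO and 8.52 in WT, Wbp11 4.04 and 7.45, Plrg1 4.97 and 7.21, U2af2 4.87 and 6.95, and U2surp 3.02 and 5.16. Both Dhx15 intervals (5.40 and 5.08 in KO, 8.14 and 5.62 in WT) and the other Ddx46 interval (2.93 in KO and 4.78 in WT) ran the same way. The 2 pairs with unequal ends were in Slu7 and Dhx15, at long intervals of 1091 bp and 2337 bp in KO against 1288 bp and 1301 bp in WT. The WT fold enrichment of overlapped WT sites (median 7.45) was close to that of the other 152 (median 7.67).

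**Figure D4:**
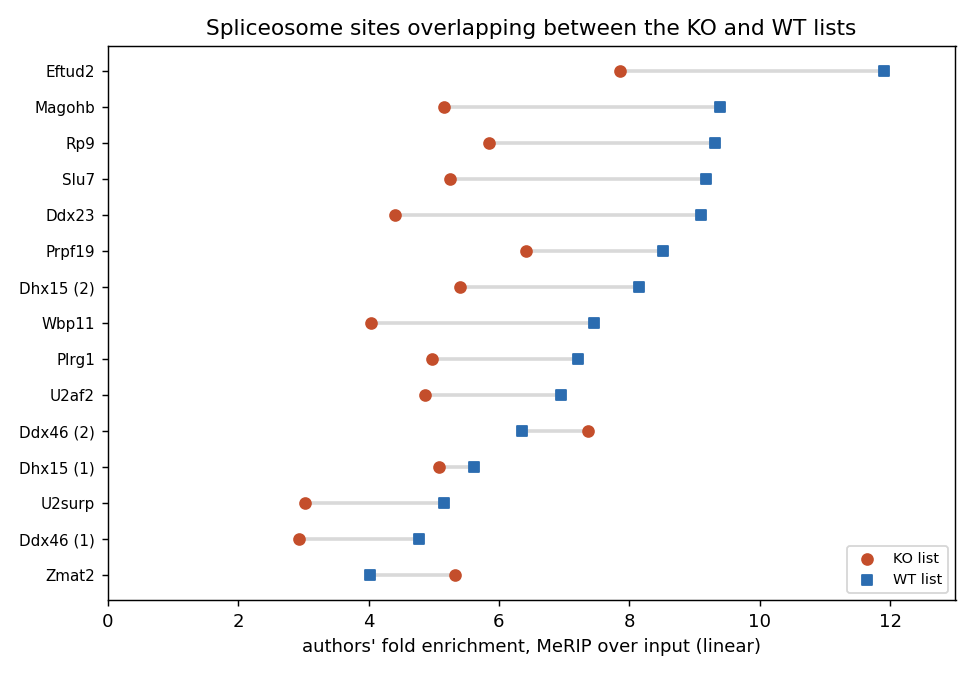
Authors' fold enrichment of MeRIP over input for the 15 overlapping pairs of KO (red circles) and WT (blue squares) sites, ordered by the WT value. Numbers in brackets tell apart the intervals of a gene with more than 1 pair, and KO lies left of WT except in Ddx46 (2) and Zmat2.

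An overlapping pair was found in 13 of the 22 members listed in both genotypes, 59.1% (38.7 to 76.7), against 54.1% of all 1929 genes listed in both. The other 9 had KO and WT sites at different positions, among them Aqr, Cdc5l, Crnkl1, Dhx8, Prpf3, Sf3a1, Sf3b3 and Snw1. The 17 KO sites of the 22 genes that met no WT site lay 609 bp to 24784 bp of genomic distance from the nearest WT site of the gene, with a median of 3293 bp. The nearest was in Crnkl1 and the farthest in Eftud2, and introns are included in these distances. Ddx46 shows the mixture. Its 10 WT sites spread over 36092 bp, and KO kept a listed peak in 2 of these intervals and had another peak (5.76-fold) at the gene start, 2831 bp from the nearest WT site. Sf3b1 had no KO site beside its 6 WT sites over 18757 bp, the only member with 6 or more WT sites without one.

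**Figure D5:**
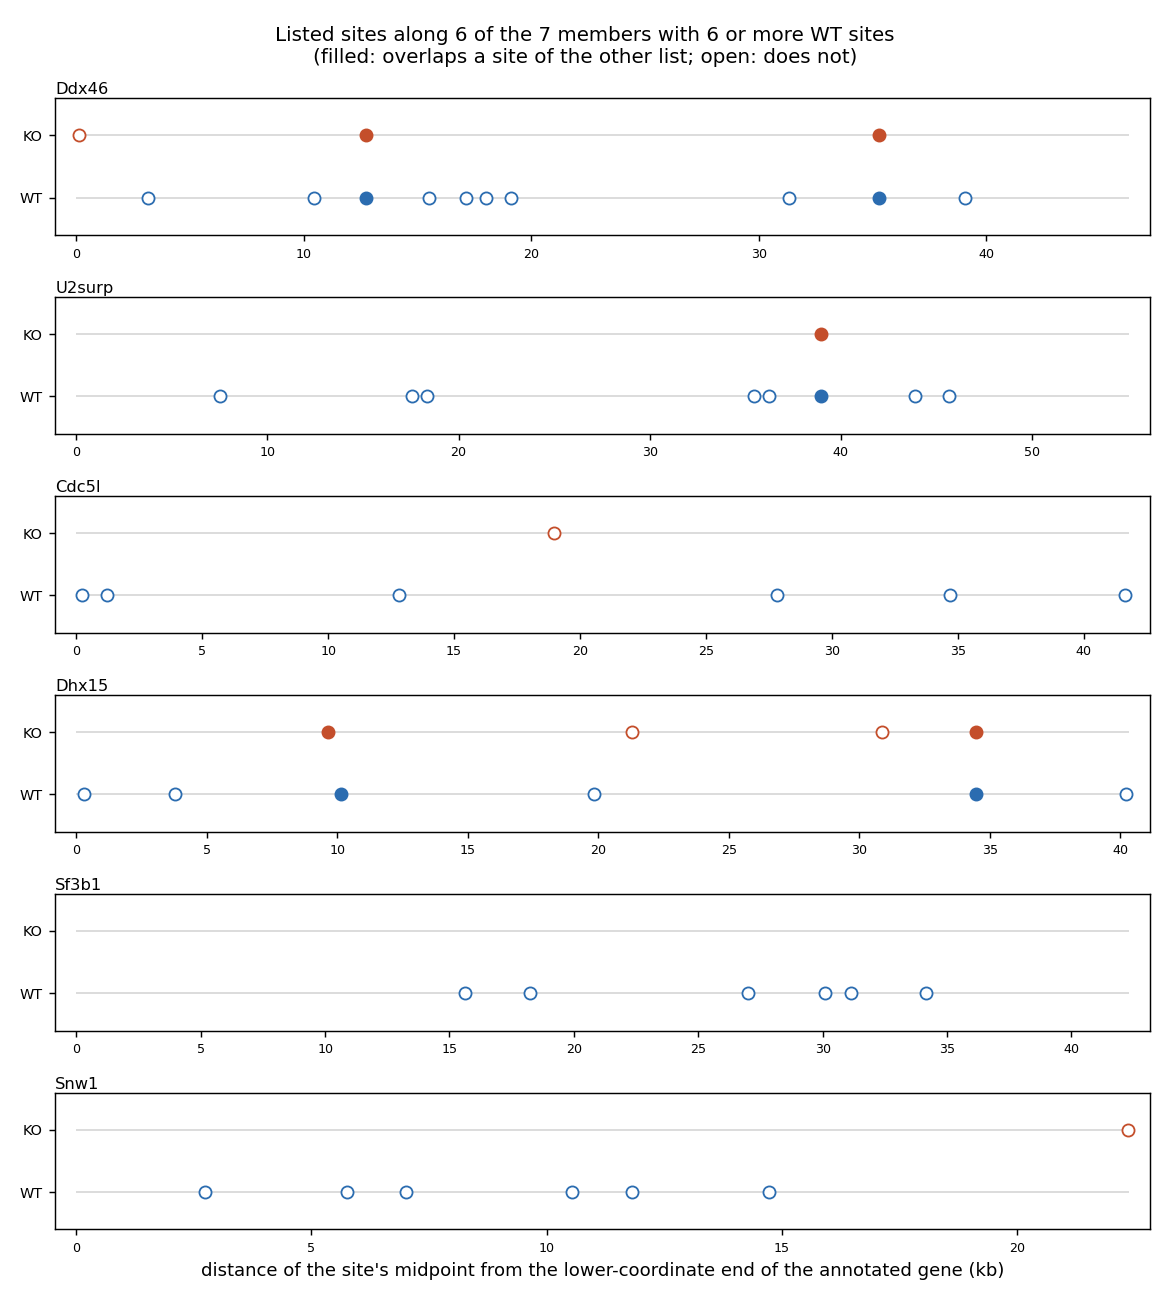
Midpoints of listed sites along 6 of the 7 members with 6 or more WT sites, as distance in kb from the lower-coordinate end of the annotated gene, with KO above WT. Filled circles overlap a site of the other list, which is the case for 2 WT sites of Ddx46, 2 of Dhx15 and 1 of U2surp.

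The 9 members listed in KO only had 1 site each, and several of these lay at an annotated transcript start. RefSeq start windows on GRCm38.p6 were at hand for 53 of the 76 members, and a window can belong to a start inside the gene. In 6 of the 7 KO-only members with a window the site reached into the first 50 transcribed bases, against 18.6% of the 649 KO-only genes with a window in the whole series. The 6 were Snrnp70 (5.35-fold), Ppil1 (5.72-fold), a cyclophilin gene, Dhx16 (4.66-fold), Ccdc12 (4.06-fold), Hspa1a and Hspa1b, and the seventh was U2af1. The window began at the outermost annotated start of the gene for 4 of the 6, 14 bp inside it for Dhx16 and 2195 bp inside it for Ccdc12. Of the 276 bp of the Ppil1 site, 176 bp lay beyond the outermost start, outside the annotated gene. The false discovery rates of the KO-only sites outside the heat shock genes ran from 46.8% to 48.9%. Over all sites of such genes, 7 of 28 member sites in KO reached into these bases, 25% (12.7 to 43.4), and 10 of 122 in WT, 8.20% (4.51 to 14.4). For all genes these shares were 12.2% in KO and 7.18% in WT. The last 200 bp of the gene were reached by 7.14% of member sites in KO and 9.84% in WT, against 10.3% and 12.8% over all genes.

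Hspa1a and Hspa1b, genes of the inducible heat shock protein, need care. The pathway annotation names them with the spliceosome, and the role list written here put them in the Prp19 class. The KO sites of Hspa1a and Hspa1b were 11.08-fold and 5.29-fold with false discovery rates of 100% and 90%. They ran over 2545 bp and 2194 bp that cover most of each gene, so no position is resolved. The first 50 transcribed bases of the 2 genes are the same at 49 positions and differ by T26C (Hspa1b to Hspa1a, counted from the first transcribed base). Reads can therefore be shared between the copies. Without intervals of 1000 bp or more, 4 of 5 KO-only members with a window had a start site, against 23.0% of all such genes. The count was 7 of 14 after trimming the WT list to the KO number of sites by fold enrichment and 6 of 9 by score, against 18.1% and 17.7% of all such genes.

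The first 30 transcribed bases of the 6 KO-only genes are shown to set them beside genes with a start site in WT, with AAC and GAC, which hold the adenosine and cytidine of the m6A consensus, in capitals. The Dhx16 site begins just after these bases. The sequences lie at chr17:34972127-34972156 (Hspa1a, minus strand), chr17:34959209-34959238 (Hspa1b, minus), chr7:45395713-45395742 (Snrnp70, minus), chr9:110656503-110656532 (Ccdc12, plus), chr17:35879778-35879807 (Dhx16, plus) and chr17:29263942-29263971 (Ppil1, minus), from RefSeq on GRCm38.p6.
Hspa1a: accaGACgctGACagctactcagAACcaaa
Hspa1b: accaGACgctGACagctactcagaatcaaa
Snrnp70: ggcgcatgcgcattgcgaaaggcggaggga
Ccdc12: ctcctgctcactgagcctgcgcgaggcaga
Dhx16: ctctttccgggtttcgcggtctgtggaatt
Ppil1: gccggaagtagtgattgctagcggggggga

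From WT, the start sites with the highest fold enrichment are shown for Magohb (chr6:131293215-131293244, minus strand, 13.96-fold), Magoh (chr4:107879755-107879784, plus, 12.90-fold) and Snrpd2 (chr7:19149838-19149867, plus, 11.63-fold). The Snrpd2 window lies 393 bp inside the outermost start of the gene.
Magohb: tgcctgcgcccgtGACgtcactacctcgcg
Magoh: gtcatttccgcgcgccaccattacgccagt
Snrpd2: aaggctggagcAACgcgcttggaggcggga

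On the transcript strand, AAC or GAC was found in the first 50 bases of 2 of the 7 genes with a KO start site, which were the heat shock copies, and of 8 of the 10 with a WT start site. The share in all 32851 windows was 68.6%. The longer GGAC was found in 0 of the 7 and 0 of the 10, and in 18.9% of all windows. The listed intervals run far beyond these bases, so the letters describe the window only, and the rest of each site was not read.

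Member sites had a shorter median width than the lists they came from. It was 160 bp in KO and 166 bp in WT, against 201 bp and 203 bp over all sites. Of member sites 4 of 41 in KO and 9 of 167 in WT were 1000 bp or longer, against 504 of 3937 and 1768 of 10514 over all sites. The best fold enrichment per gene had a median of 5.42 in KO (quartiles 4.77 and 6.32), against 6.54 over all KO genes. In WT it was 8.52 (7.34 and 11.30), against 8.76 over all WT genes, and the order turned at 5-fold or more (9.10 against 8.84), with the upper 75% by score (9.23 against 9) and in the WT list trimmed by fold enrichment (11.35 against 10.5). False discovery rates of member sites ran from 46.1% to 100% in KO and from 9.75% to 80.9% in WT. At most 50% was reached by 29 of 41 KO sites and 165 of 167 WT sites, 70.7% and 98.8%. Over all sites these shares were close, 70.1% in KO and 97.1% in WT. At most 20% was reached by 0 member sites in KO and 140 in WT. No KO site described above had a rate below 46.1%, and the lowest rate of the whole KO list was 45.9%.

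Gene length moved with listing. The median genomic length was 22289 bp for the 22 members in both lists, 17563 bp for the 45 in WT only and 12068 bp for the 9 in KO only. Over all genes it was 56512 bp, 28721 bp and 25217 bp in the same order. The part of gene length, transcript level and number of exons in these listings was not tested.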

How the data were processed

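MeRIP and input RNA of KO and WT embryonic pancreas was measured, with 1 library of each per genotype. The submitters' processing notes name cutadapt 1.9.3, HISAT2 2.0.4 and the mm10 build, without their settings. Per the file headers, the deposited score of a site is a multiple of the negative log10 of the caller's p-value. Fold enrichment, also deposited, is the ratio of pulled-down over input signal. The authors' false discovery rate was taken as percent, since its maximum is 100. Peak names begin with MACS, of unstated version. That each pull-down was compared with the input of its own genotype was assumed from the labels. Levels were ranked within a list, and KO and WT values of overlapping sites were set side by side, with a count of which was lower and no ratio or test. No read counts are given, so depth is unknown.

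Starts were read as 0-based, since 449 WT sites then begin at an annotated gene start, against 36 otherwise, and are printed 1-based. Names follow GRCm38.p6 RefSeq gene identifiers. Members come from the pathway column. The role list of 129 genes, of which 75 had a listed site and 74 also the pathway entry, was written from general knowledge, and Hnrnpa1l2-ps2 and Rp9 were added afterwards. Members and lists were chosen with earlier results of these data known. Results of 2 members are not reported here by name, but they stay in all counts. The other members are named with at least their best fold enrichment or number of sites. The rule for further site values took members in KO only, those with an overlapping pair, and those with the strongest (without a KO site) or the most WT sites of a class, and more are printed for other members. Overlaps of at least 1 bp, without strand, and Wilson 95% intervals were computed in Python 3.11.15 with pandas 2.3.3, and both were tested on simulated data. Alternatives covered the false discovery rate, fold enrichment, score, list length, interval length, overlap rule and membership. Exons, introns and UTRs were not assigned.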

Additional observations from a re-analysis of the deposited data

How the results depend on the processing

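Settings were changed singly, and of the 70 recomputed main values 57 stayed close to the first value (counts within 1.5 times, shares within their Wilson interval, medians within their quartiles). The 57 include values that could not move, since trimming the WT list leaves the number and best fold enrichment of KO sites as they were. The 22 members listed in both genotypes became 14 of 63 with sites of at least 5-fold enrichment, 13 of 58 with the upper 75% of each list by score, 13 of 32 after trimming the WT list to the KO number of sites by fold enrichment, and 13 of 67 with an overlapping pair needed. The same shares over all genes were 32.0%, 33.8%, 43.9% and 20.5%. The overlapped part of member WT sites became 5.30% at 5-fold and 3.79% with the upper 75%, against 9.12% and 11% over all genes. That of KO sites became 17.2% with the upper 75%, and 12.2% or 19.5% with WT trimmed by fold enrichment or by score, against 29.3%, 12.8% and 15.1% over all genes. Member KO sites numbered 27 at 5-fold, and member WT sites 47 or 65 in the lists trimmed by fold enrichment or by score, and the median best WT fold enrichment was 11.35 in the first of these, against 10.5 over all genes. Fewer sites enter each of these settings, apart from the pair rule, by construction. Leaving out Hspa1a, Hspa1b and Hnrnpa1l2-ps2, chosen after seeing the data, left 22 of 66 members in both lists.

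No paired analysis was possible because each genotype had 1 library of each kind. Leaving out a replicate was not possible for the same reason. Depth is unknown, so an unlisted site is not shown to be unmethylated. The counts for lone WT sites and of gene starts under these settings were chosen after seeing the data.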
